A study of Saccharomyces cerevisiae with 10 samples.

Results

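RNA was compared directly between 2 overexpression strains of budding yeast, one with extra copies of UTP6 (UTP6-OE) and one with extra copies of PRP22 (PRP22-OE). The members were the 2 UTP6-OE and 2 PRP22-OE cultures, 4 of the 10 sequenced cultures in all, chosen by their sample labels. The 2 wild-type (WT) cultures were given only as a reference. This pair of strains was picked for having the most shared genes lower than WT. All strains were BY4741, a haploid MATa laboratory strain, grown in medium without uracil with 2% glucose and collected at an OD600 of 0.4. UTP6-OE carried UTP6, and PRP22-OE carried PRP22, each behind its own promoter on a low-copy centromeric plasmid marked with URA3. The methods describe the WT control as carrying the empty plasmid. Each strain was kept as a frozen stock from individual colonies of a transformation, so a change that arose in 1 transformant cannot be told apart from an effect of the plasmid gene.

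UTP6 encodes a component of the small subunit processome, the large particle built around the U3 snoRNA that cuts and folds the precursor of 18S ribosomal RNA in the nucleolus. PRP22 encodes a DEAH-box RNA helicase of the spliceosome that releases the spliced mRNA at the end of splicing. Both are essential, and in these strains each is raised on top of an intact chromosomal copy.

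Levels were FPKM, fragments scaled to feature length and library size. Differences were computed on log2(FPKM + 0.5), which understates the change of low genes, as UTP6-OE minus PRP22-OE, with limma over 5768 features that averaged 1 FPKM or more. A feature was called at a Benjamini-Hochberg adjusted p of at most 0.05 from the fit of all 10 libraries. Depths estimated from the spacing of low FPKM values lay between 13453500 and 17351100 fragments. In the first UTP6-OE culture and the second PRP22-OE culture the estimated fragment length was 281 bases, and in the other UTP6-OE and PRP22-OE cultures it was 308 and 313 bases. Each strain thus had 1 library of either kind, and values within each kind are given below as the short-fragment pair and the long-fragment pair. Of the tested features, 481 were under 400 bases, and for these the differences of both pairs had a Pearson correlation of -0.20, against 0.61 over the 5264 features of at least 400 bases. The correlations are across features, which are not independent replicates, and all the values of a pair share its 2 libraries. Of the MATa markers fixed for this strain, 5 of 7 had a row, and their summed level was between 981 and 1122 FPKM in the 4 cultures. The 4 MATalpha markers summed to between 43.8 and 57.5 FPKM, and the lowest of them, MF(ALPHA)1, lay between 0.67 and 2.63 FPKM.

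The direct contrast called 581 of 5768 features, 10.1% of those tested. Of these, 215 (3.73% of those tested) were higher in UTP6-OE than in PRP22-OE and 366 (6.35%) were lower. Most differences were small, with a median size of 0.38 among the called features, and 413 of them (71.1%) were under 0.5. A log2 difference of at least 1 was found for 8 called features higher in UTP6-OE and 15 lower. Over all tested features the median was -0.02. In all 581 called features the cultures of the strains did not overlap, which was also so for 3211 of all tested features (55.7%). A permutation of 2 cultures against 2 cannot give an exact two-sided p below 0.333, so the calls rest on the spread pooled over the 5 strains.

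**Figure D1:**
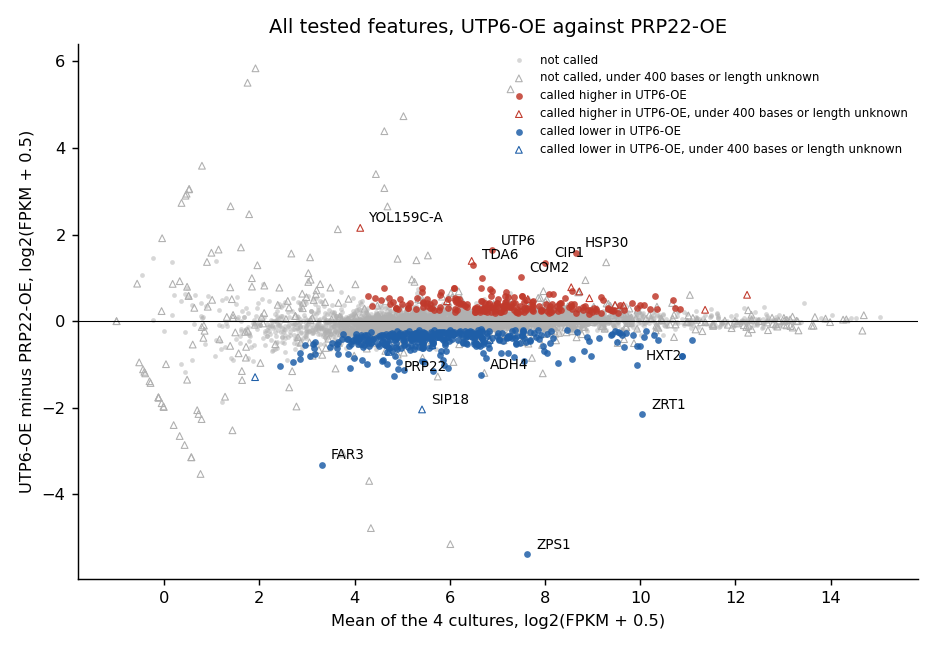
Each point is 1 of 5768 tested features, with the mean of the 2 UTP6-OE and 2 PRP22-OE cultures on the horizontal axis and UTP6-OE minus PRP22-OE on the vertical axis, both on log2(FPKM + 0.5). Red marks the 215 features called higher in UTP6-OE, blue the 366 called lower, grey the rest, and triangles the features under 400 bases or of unknown length, which hold most of the wide differences that were not called.

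The overexpressed genes were examined first, as a check of the labels. UTP6 (YDR449C, chrIV:1357580-1358902, minus strand) had 204 and 212 FPKM in UTP6-OE, against 71.8 and 61.6 FPKM in PRP22-OE and 80.5 and 85.9 FPKM in WT. Both UTP6-OE cultures lay above all PRP22-OE and WT cultures, and the direct log2 difference was 1.64 (standard error 0.11, adjusted p = 0.000197 from limma). For PRP22 (YER013W, chrV:178841-182278, plus strand), the levels were 16.8 and 18.9 FPKM in UTP6-OE, against 43.3 and 44.5 FPKM in PRP22-OE and 20.9 and 20 FPKM in WT. This gave a direct difference of -1.27 (standard error 0.09, adjusted p = 0.000272), with both PRP22-OE cultures above all the others. The strain that did not carry the plasmid copy did not differ detectably from WT in either gene, with log2 differences of -0.32 for UTP6 in PRP22-OE (adjusted p = 0.0745) and -0.19 for PRP22 in UTP6-OE (adjusted p = 0.148).

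Of the chromosomal neighbours, PRE1, a proteasome subunit gene that ends just before PRP22, had 702 and 699 FPKM in UTP6-OE and 907 and 841 FPKM in PRP22-OE. It was called lower in UTP6-OE by a difference of -0.32 (adjusted p = 0.012). The other 3 neighbours were not called, at -0.13 for ADA2 and -0.08 for RPS18A beside UTP6, and 0.06 for HEM14 beside PRP22. FAA2 (YER015W, chrV:184541-186775), a medium-chain acyl-CoA synthetase gene on the far side of HEM14, had 9.78 and 9.91 FPKM in UTP6-OE, against 22 and 20.5 FPKM in PRP22-OE and 14.1 and 11.04 FPKM in WT, and differed by -1.07 (adjusted p = 0.00258). URA3, the plasmid marker, had 894 and 854 FPKM in UTP6-OE, against 725 and 625 FPKM in PRP22-OE and 919.6 and 937 FPKM in WT. It was called higher in UTP6-OE by 0.38 (adjusted p = 0.0429), and the PRP22-OE cultures were the low ones.

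The widest called difference was in a zinc gene. In zinc-limited yeast, the activator Zap1 binds zinc-responsive elements in promoters and raises the genes of zinc uptake and storage. ZPS1 (YOL154W, chrXV:34658-35407), a cell surface protein gene of this regulon, had 30 and 30.2 FPKM in UTP6-OE, against 1328 and 1235 FPKM in PRP22-OE and 839.7 and 815 FPKM in WT. The UTP6-OE cultures lay far below all the others, and the PRP22-OE cultures lay above WT. The direct difference was -5.39 (standard error 0.06, adjusted p = 6.75e-09), a 42.6-fold ratio of the PRP22-OE mean to the UTP6-OE mean. ZRT1 (YGL255W, chrVII:20978-22108), the high-affinity zinc transporter, had 487 and 508 FPKM in UTP6-OE, against 2297 and 2139.8 FPKM in PRP22-OE and 936 and 949.8 FPKM in WT. It differed by -2.15 (standard error 0.06, adjusted p = 2.27e-06), again with WT between the strains. ADH4 (YGL256W, chrVII:15159-16307), an alcohol dehydrogenase gene beside ZRT1, had 63.4 and 66.3 FPKM in UTP6-OE, against 156 and 151 FPKM in PRP22-OE and 119 and 129 FPKM in WT, a difference of -1.23 (adjusted p = 4.85e-05).

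Over the zinc list, 9 of 18 measured members were called lower in UTP6-OE, none was called higher, and the median difference was -0.31, against -0.02 over all tested features. The called share was 50.0%, against 6.35% of all features called lower. Besides the 3 genes above, these were FET4, a low-affinity iron and zinc transporter (-0.78), VEL1 (-0.63), ZAP1 itself (-0.52), the membrane receptor homologues IZH4 (-0.51) and IZH2 (-0.42), and ZRT3, which exports zinc from the vacuole (-0.48). ZAP1 had 13.1 and 13.9 FPKM in UTP6-OE and 18.8 and 20.2 FPKM in PRP22-OE. The 9 members that were not called lay between -0.20 for DPP1 and 0.25 for YOR387C, and they included ZRT2, the low-affinity zinc transporter, with 248 and 246 FPKM in UTP6-OE and 238 and 232 FPKM in PRP22-OE. The median of the list was -0.27 in the short-fragment pair and -0.42 in the long-fragment pair. Against WT the list's median was -0.20 in UTP6-OE and 0.24 in PRP22-OE, and both of these values share the WT cultures.

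Promoter stretches of called zinc genes are shown because their levels moved together. In RefSeq assembly R64, 500 bases before the start codon were searched on both strands for ACCNTNANGGT, a relaxed form of the zinc-responsive element whose strict form is ACCTTNAAGGT. The relaxed form was found in 7 of 18 zinc list members, against 0.616% of all 6006 promoters of that length, and the strict form in 2, against 0.15%. The relaxed form was in 4 of the 9 called members and in 3 of the 9 others, among them ZRT2. Membership of the list partly reflects known Zap1 targets, so the share with the element is a description of the list. Capitals mark the relaxed element in the following stretches, which read 5′ to 3′ on the strand of the gene.
ZPS1 (chrXV:34319-34379, plus strand): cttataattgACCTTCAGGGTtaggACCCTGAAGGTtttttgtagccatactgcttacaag
ZRT1 (chrVII:20749-20809, plus strand): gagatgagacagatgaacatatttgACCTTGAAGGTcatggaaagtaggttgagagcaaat
ZAP1 (chrX:333182-333242, minus strand): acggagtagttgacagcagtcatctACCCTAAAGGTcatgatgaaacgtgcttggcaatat
ZRT3 (chrXI:118613-118673, plus strand): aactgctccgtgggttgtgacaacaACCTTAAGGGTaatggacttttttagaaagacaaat
ZPS1 held a pair of such elements in 1 stretch, and the other 3 stretches held 1 each. A match is a run of letters and was not tested as a binding site. The other called members, ADH4, FET4, VEL1, IZH2 and IZH4, had none in this window.

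Iron uptake genes were also lower in UTP6-OE. Under low iron, the activator Aft1 turns on the reductases, the ferroxidase and permease pair Fet3 and Ftr1, and the siderophore transporters of the plasma membrane. Of 29 measured members, 15 were called lower in UTP6-OE and none was called higher, and the median difference was -0.43. The called share was 51.7%, again against 6.35%. In 26 of the 29 the difference was below 0, compared with 3092 of 5768 tested features. The median was -0.44 in the short-fragment pair and -0.47 in the long-fragment pair. FET4 is in both this list and the zinc list.

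Among the siderophore transporters, SIT1 had 20.7 and 22.9 FPKM in UTP6-OE, against 51.3 and 44.9 FPKM in PRP22-OE and 55.7 and 47.7 FPKM in WT, a difference of -1.13 (standard error 0.13, adjusted p = 0.00261). ENB1 had 29.6 and 32.8 FPKM in UTP6-OE, against 62.8 and 57.5 FPKM in PRP22-OE and 123 and 122 FPKM in WT, a difference of -0.94 (adjusted p = 0.000521). The PRP22-OE cultures overlapped WT in SIT1 and lay between UTP6-OE and WT in ENB1. ARN1 and ARN2 were called lower too, at -0.53 and -0.52. For the ferroxidase gene FET3 the levels were 283 and 282 FPKM in UTP6-OE, against 524 and 506 FPKM in PRP22-OE and 409 and 412 FPKM in WT (-0.86, adjusted p = 7.07e-05). FTR1, its partner permease, had 212 and 228 FPKM in UTP6-OE, against 451 and 408 FPKM in PRP22-OE and 393 and 399.8 FPKM in WT (-0.96, adjusted p = 0.000345). Both genes of the pair were thus lowest in UTP6-OE and highest in PRP22-OE in every culture. TIS11, whose product directs the decay of mRNAs for iron-using proteins, had 19.1 and 20.9 FPKM in UTP6-OE, against 46.3 and 40.9 FPKM in PRP22-OE and 90.97 and 91.97 FPKM in WT (-1.10, adjusted p = 0.00199). Here both strains lay below WT, and UTP6-OE lay lower.

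The mannoprotein genes FIT2 and FIT3, which hold iron siderophores in the cell wall, were lower by -0.86 and -0.90, and the heme oxygenase gene HMX1 by -0.63. Of the plasma membrane reductases, FRE1 was called at -0.46, while FRE2 at -0.50 and FRE3 at -0.43 were not. AFT1 had a difference of -0.40 and AFT2 of 0.02, and neither was called. Among the 14 members not called, ATX1 was at 0.006, FET5 at -0.07 and the vacuolar importer gene CCC1 at 0.03.

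The Aft1 core TGCACCC was searched in the same windows on both strands. It was found in 21 of 29 iron list members, against 2.33% of all promoters, and in 14 of the 15 called members and 7 of the 14 others. The stretch nearest the start codon is shown for the 5 called members described above, with the core, or its reverse complement, in capitals.
FTR1 (chrV:461884-461940, minus strand): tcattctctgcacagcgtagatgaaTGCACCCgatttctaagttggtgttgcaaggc
FET3 (chrXIII:388546-388602, plus strand): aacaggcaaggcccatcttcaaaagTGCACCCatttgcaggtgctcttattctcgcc
SIT1 (chrV:27444-27500, plus strand): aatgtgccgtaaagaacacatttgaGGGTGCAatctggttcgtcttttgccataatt
ENB1 (chrXV:21417-21473, minus strand): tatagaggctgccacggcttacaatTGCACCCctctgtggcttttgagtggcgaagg
TIS11 (chrXII:416800-416856, minus strand): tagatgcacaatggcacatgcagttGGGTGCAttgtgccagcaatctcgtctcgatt
FRE1 was the called member with no match in this window. Membership of the list partly reflects published Aft1 targets, so the share with the core is a description of the list.

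**Figure D2:**
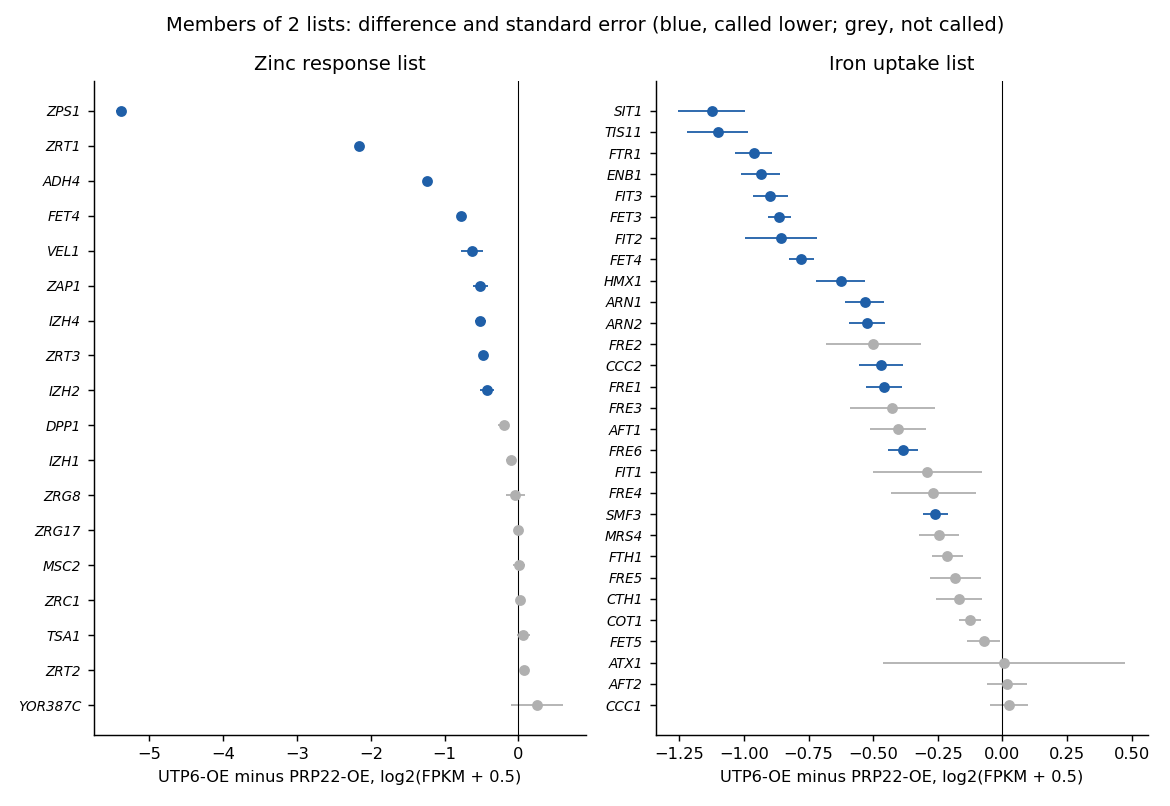
The horizontal axis is UTP6-OE minus PRP22-OE on log2(FPKM + 0.5) for each member of the zinc list (left, 18 genes) and the iron list (right, 29 genes), and bars are standard errors from limma. Blue marks the 9 and 15 members called lower in UTP6-OE and grey those not called; no member was called higher, and ZPS1 stands apart at -5.39.

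FAR3 (YMR052W, chrXIII:379586-380200), needed for arrest in G1 after pheromone, gave the second widest called difference of features over 400 bases. It had 2.09 and 3.31 FPKM in UTP6-OE, against 30.6 and 31 FPKM in PRP22-OE and 52.1 and 48.98 FPKM in WT. The difference was -3.32 (standard error 0.16, adjusted p = 4.85e-05), and UTP6-OE was the low strain, while PRP22-OE lay between UTP6-OE and WT. The other 5 genes of the Far3 complex list were not called, with differences between -0.23 for FAR10 and 0.12 for FAR7. Of 33 pheromone and mating genes, 1 was called higher and 2 lower (9.09%, close to the 10.1% of all features called). These were BAR1 (0.32), which encodes the protease that degrades alpha factor, and PRM4 (-0.68) and PRM5 (-0.35).

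Genes of glucose transport and of storage carbohydrates were called lower in UTP6-OE or not at all. Of 18 hexose transporter and sensor genes, 6 were called lower in UTP6-OE and none higher (33.3% called, against 6.35% of all features called lower), and the median was -0.22. The count was 3 without the first UTP6-OE culture, 1 without the second and 2 without the first PRP22-OE culture. HXT2, a high-affinity glucose transporter gene, had 681 and 683 FPKM in UTP6-OE, against 1483 and 1288 FPKM in PRP22-OE and 1152 and 1192 FPKM in WT (-1.02, standard error 0.09, adjusted p = 0.000647). HXT4 had 358 and 357 FPKM in UTP6-OE, against 636 and 522 FPKM in PRP22-OE and 157 and 149.9 FPKM in WT (-0.69, adjusted p = 0.00785). WT lay between the strains for HXT2 and below both for HXT4. HXT7 was called at -0.57, the glucose sensor SNF3 at -0.54, HXT3 at -0.45 and the sensor RGT2 at -0.25. HXT6, which is nearly identical to HXT7, was at -0.05 and was not called, and reads of this pair could have been split between them.

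For storage carbohydrates, 3 of 14 glycogen genes (21.4%) and 3 of 7 trehalose genes (42.9%) were called lower and none higher, against 6.35% of all features called lower. The glycogen count was 3 with any 1 culture of UTP6-OE, PRP22-OE or WT left out, and the trehalose count 2. GSY1, a glycogen synthase gene, had 115 and 114 FPKM in UTP6-OE, against 195 and 191 FPKM in PRP22-OE and 54.3 and 53.2 FPKM in WT (-0.75, adjusted p = 0.000325). GLC3, the branching enzyme gene, was at -0.62 and the glycogenin gene GLG1 at -0.58, and in both genes the UTP6-OE cultures lay between PRP22-OE and WT. The other glycogen synthase gene, GSY2, was at -0.15 and was not called, nor was the phosphorylase gene GPH1 at -0.06. TPS2, the trehalose phosphate phosphatase gene, had 207 and 199.98 FPKM in UTP6-OE, against 309 and 298 FPKM in PRP22-OE and 172 and 173 FPKM in WT (-0.58, adjusted p = 0.000934). The regulatory subunit genes TSL1 and TPS3 were at -0.44 and -0.29, while the synthase gene TPS1, at 0.03, was not called. In the citrate and glyoxylate list 5 of 31 (16.1%) were called lower and none higher, with MDH2 at -0.70, ICL1 at -0.60, IDP2 at -0.53, CIT2 at -0.38 and PYC1 at -0.29. That count was 0 without the first UTP6-OE culture, 1 without the second, 2 without the first PRP22-OE culture and 3 without the second. Of 26 glycolysis and fermentation genes, 15.4% were called, against 10.1% of all features, and the median was 0.02. There 3 were called lower, led by the pyruvate decarboxylase gene PDC5 (-0.72), and 1 higher, the glycerol phosphatase gene GPP2 (0.49).

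Purine synthesis genes were called lower in 7 of 26 cases (26.9%, against 6.35% of all features) and higher in 1. The lower count was 3 with either UTP6-OE culture or the first PRP22-OE culture left out, and 2 with only the 4 libraries compared. IMD2, one of the genes for IMP dehydrogenase, which makes guanine nucleotides, had 31.9 and 33.98 FPKM in UTP6-OE, against 74.2 and 73.7 FPKM in PRP22-OE and 88.1 and 92.8 FPKM in WT (-1.15, adjusted p = 4.85e-05). MTD1 was at -0.50, ADE17 at -0.45 and ADE4 at -0.42, and in these 3 genes PRP22-OE was the highest and WT the lowest. AAH1, an adenine deaminase gene, was the member called higher (0.33). Of 39 cell wall genes, 7 (17.9%, or 4 with either UTP6-OE culture or the first PRP22-OE culture left out) were called lower, led by the mannoprotein genes TIR1 (-0.76) and TIP1 (-0.60), and 1, SPI1, higher (0.59).

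Stress genes were called in both directions. Msn2 and Msn4 are activators that respond to many stresses, and of 28 of their measured target genes 13 were called higher in UTP6-OE and 5 lower (64.3% called, against 10.1% of all features), with a median of 0.25. The higher calls were 4 with either UTP6-OE culture left out and 6 and 3 without the first and second PRP22-OE cultures, and the lower calls were 1 and 0 without the first and second UTP6-OE cultures and 2 with either PRP22-OE culture left out. HSP26, a small heat shock protein gene, had 454 and 509 FPKM in UTP6-OE, against 317 and 277 FPKM in PRP22-OE and 519 and 545 FPKM in WT (0.70, standard error 0.09, adjusted p = 0.00317). The UTP6-OE cultures lay just below WT, and the PRP22-OE cultures were the low ones. HSP12, a membrane-protecting protein gene of 330 bases, had 5515 and 6523 FPKM in UTP6-OE, against 4381 and 3531 FPKM in PRP22-OE and 1408 and 1369.6 FPKM in WT (0.61, adjusted p = 0.0286). Here both strains lay above WT. SPI1 was at 0.59, YGP1 at 0.49, ALD3 at 0.57 and GRE3 at 0.41. The 5 members called lower were SIP18 (-2.04), a gene of 240 bases for a protein of desiccation tolerance, MSN4 itself (-0.47), the repressor gene XBP1 (-0.46), the vacuolar protease gene PRB1 (-0.35) and HXK1 (-0.24).

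Chaperone genes were called in 1 direction only, with 11 of 31 called higher in UTP6-OE, none called lower and a median of 0.14. Against WT the list's median was below 0 in both strains, at -0.14 in UTP6-OE and -0.22 in PRP22-OE, with the WT cultures shared. The called share was 35.5%, against 3.73% of all features called higher. It fell to 6 and 4 genes without the first and second UTP6-OE cultures and to 5 and 4 without the first and second PRP22-OE cultures. After HSP26 the widest were HSP31 (0.41), SSE2 (0.41) and FES1 (0.40). HSP82, the heat-induced Hsp90 gene, had 292 and 324 FPKM in UTP6-OE, against 247 and 239 FPKM in PRP22-OE and 398 and 412 FPKM in WT (0.34, adjusted p = 0.019). Its constitutive copy HSC82, at 0.05, was not called, nor was the disaggregase gene HSP104, at 0.03. Peroxide defence genes were called higher in 4 of 30 cases (13.3%, against 3.73%) and lower in 1, and the higher calls were 1 with either UTP6-OE culture left out and 2 with any 1 PRP22-OE or WT culture left out. They had TSA2 at 0.58, TRX3 at 0.51 and HYR1 at 0.31 on the higher side and SRX1, the sulfiredoxin gene, at -0.71 on the lower. The lower call was lost with any 1 UTP6-OE or PRP22-OE culture left out.

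After UTP6, the widest called differences above 0 in features of at least 400 bases were in HSP30, CIP1 and TDA6. HSP30, whose product restrains the plasma membrane proton pump under stress, had 675 and 711 FPKM in UTP6-OE, against 239 and 222 FPKM in PRP22-OE and 328 and 325 FPKM in WT (1.58, standard error 0.08, adjusted p = 7.71e-05). CIP1, an inhibitor of G1 cyclin-dependent kinase, had 441 and 377 FPKM in UTP6-OE, against 160.1 and 160.3 FPKM in PRP22-OE and 223 and 213 FPKM in WT (1.34, adjusted p = 0.000115). In both genes WT lay between the strains, above PRP22-OE and below UTP6-OE. TDA6 had 139 and 142 FPKM in UTP6-OE, against 60.1 and 53.4 FPKM in PRP22-OE and 56.03 and 55.4 FPKM in WT (1.31, adjusted p = 8.17e-05), so that only UTP6-OE stood apart. COM2, a zinc finger transcription factor gene, was at 1.01 and YDR222W at 1.002, with adjusted p of 0.000197 and 0.000451. The rest of the 15 widest, UTP6 included, were YOR338W (0.77), BMT6 (0.76), PHM8 (0.76), AST1 (0.74), GOR1 (0.69), GFD2 (0.68), HSP26 and both annotated copies of RDN37.

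**Figure D3:**
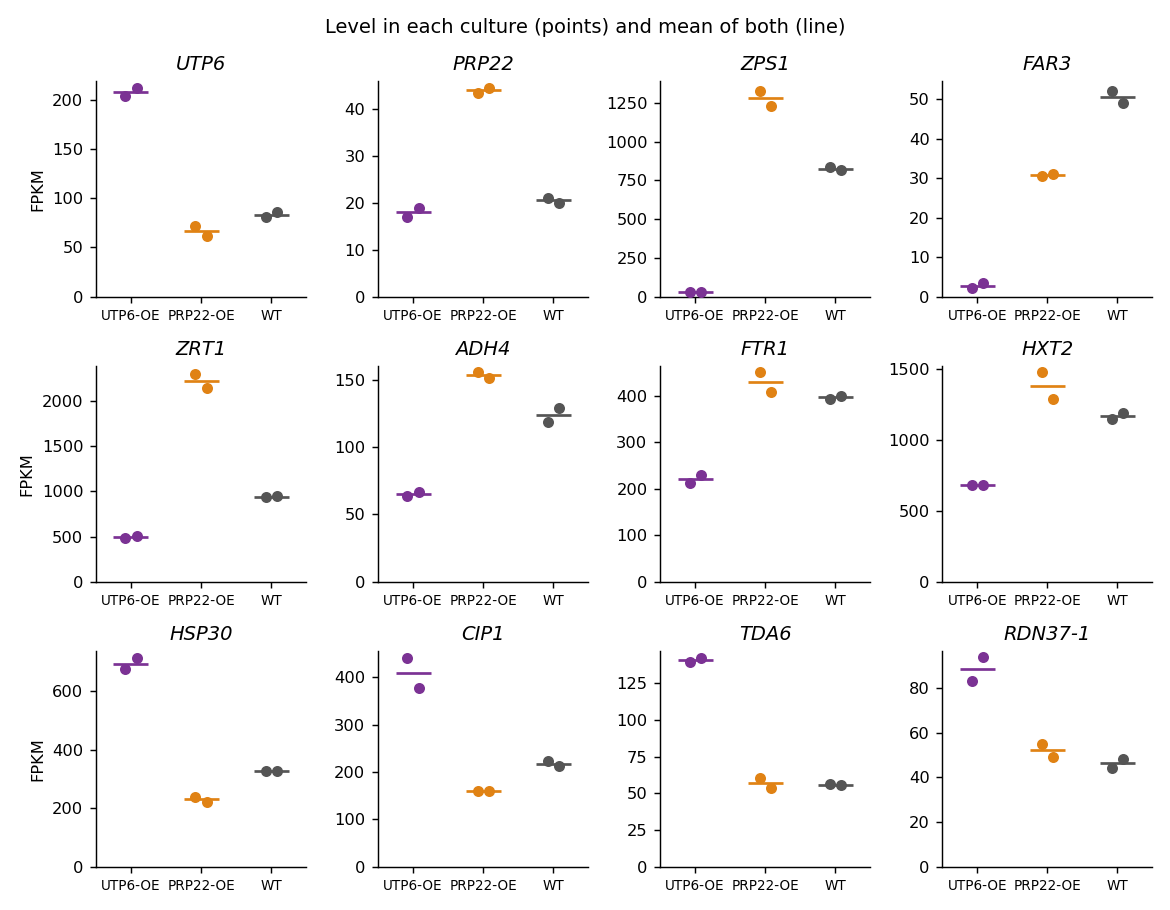
Each panel gives the FPKM of 1 feature in the 2 cultures of UTP6-OE, PRP22-OE and WT (points) with their mean (line), on an axis from 0. UTP6 is highest in UTP6-OE and PRP22 in PRP22-OE; WT lies between the strains for ZPS1, ZRT1, ADH4, HSP30 and CIP1, and FAR3 is near 0 only in UTP6-OE.

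Genes of the small subunit processome, the machinery of Utp6 itself, were called higher in UTP6-OE by small amounts or not at all. The list had 13 of 62 members called higher in UTP6-OE and none lower, with a median of 0.15, and UTP6 is 1 of the 13. The called share was 21.0%, against 3.73% of all features called higher. The count was 5 and 3 without the first and second UTP6-OE cultures, 4 with either PRP22-OE culture left out and 8 with either WT culture left out, while rescaling by the median of ratios gave 19. After UTP6 the widest were the helicase genes FAL1 (0.42) and DBP8 (0.42), and UTP9 (0.33), a gene of the t-UTP subcomplex. DBP8 had 87.1 and 87.3 FPKM in UTP6-OE, against 64.8 and 65.5 FPKM in PRP22-OE and 83.7 and 85.6 FPKM in WT, and UTP9 had 129.5 and 136 FPKM in UTP6-OE, against 107 and 103 FPKM in PRP22-OE and 132 and 130.2 FPKM in WT. In both genes UTP6-OE was level with WT and PRP22-OE was the low strain. The list's median against WT was 0.06 in UTP6-OE and -0.10 in PRP22-OE, with the WT cultures shared. Within like libraries the direct median was 0.14 in the short-fragment pair and 0.19 in the long-fragment pair. Of 70 large subunit assembly genes, 5 were called higher and none lower, with a median of 0.10. The share, 7.14%, lay below the 10.1% of all features called and above the 3.73% called higher. Rescaling gave 15 calls, and there were 2 without the second UTP6-OE culture and 3 without the first PRP22-OE culture. The 5 were RSA4 (0.51), REI1 (0.42), SSF1 (0.42), IPI1 (0.39) and NOG2 (0.29). RSA4 had 73.8 and 73.2 FPKM in UTP6-OE, against 51 and 51.9 FPKM in PRP22-OE and 67.1 and 66.4 FPKM in WT.

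In the promoter windows of the processome list, the ribosome assembly motifs PAC (GATGAG) and RRPE (AAAATTTT) were found in 55 and 47 of 62 members on either strand, against 28.2% and 12.4% of all promoters. All 13 called members held PAC and 11 held RRPE, and of the 49 others 42 held PAC and 36 RRPE.

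The ribosomal RNA precursor was read out by a group of features chosen after their values were seen. RDN37-1, the annotated primary transcript, had 83.2 and 93.9 FPKM in UTP6-OE, against 55.1 and 49.1 FPKM in PRP22-OE and 44.4 and 48.1 FPKM in WT (0.76, standard error 0.10, adjusted p = 0.0037). The 5′ external transcribed spacer ETS1-1, which the processome helps to remove, had 219.99 and 227 FPKM in UTP6-OE, against 153 and 148 FPKM in PRP22-OE and 101 and 114 FPKM in WT (0.57, adjusted p = 0.0037). UTP6-OE was the highest strain in both. The mature RNAs were not called, at 0.07 for RDN18-1 and 0.26 for RDN25-1, and the second annotated copy of each feature carried identical values. Of the 10 features in this group, 4 were called higher (40%, against 3.73% of all features) and 0 lower. The 4 were the copies of RDN37 and ETS1, with identical values between copies. Since the group was chosen after its values were seen, this share is part of that choice and not a finding. With copies counted separately, the difference was above 0 in 8 features and below 0 in 2. The lowest was -1.76, which was not called. These features overlap on the genome. The methods name a TruSeq RNA kit and do not say how ribosomal RNA was removed, and the part of the library preparation in these levels was not tested.

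Cytosolic ribosomal protein genes did not follow the assembly genes, with 0 of 131 called by limma, against 10.1% of all features. Of them, 4 had an unadjusted p of at most 0.05, and their median was -0.03. Spliceosome genes, the machinery of Prp22, had 2 of 87 called higher and 5 lower, PRP22 included. The called share was 8.05%, close to the 10.1% of all features, and 44 members lay above 0 and 43 below. PRP45 was at -0.49 and NAM8 at -0.31 on the lower side, and PRP11 at 0.41 and HSH49 at 0.40 on the higher side. Of 176 intron-containing genes outside the ribosome, 2 were called higher and 1 lower (1.70% called, against 10.1% of all features). These were NOG2 (0.29), PFY1 (0.26) and PAL2 (-0.44), and the list's median was 0.01. By limma none of the 72 mitochondrial ribosomal protein genes, 11 histone genes or 13 PAU genes was called, against 10.1% of all features. In these lists 7, 2 and 3 genes had an unadjusted p of at most 0.05.

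Cell cycle genes were called in both directions. Of 24 cyclin and cell cycle inhibitor genes, 2 were called higher in UTP6-OE and 2 lower, with a median of -0.07 and 16.7% called, against 10.1% of all features. PCL9, a cyclin gene for the kinase Pho85, had 73.8 and 66.7 FPKM in UTP6-OE, against 41.4 and 46.96 FPKM in PRP22-OE and 41.95 and 41.9 FPKM in WT (0.66, adjusted p = 0.00261). The S-phase inhibitor gene SIC1 was called higher too, at 0.32, and only 1 higher call remained with any 1 UTP6-OE, PRP22-OE or WT culture left out. The G1 cyclin genes CLN1 (-0.55) and PCL1 (-0.74) were called lower, and 1 of these calls was left without the second UTP6-OE culture. PCL1 had 82.3 and 78.3 FPKM in UTP6-OE, against 145 and 125 FPKM in PRP22-OE and 151 and 163 FPKM in WT.

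**Figure D4:**
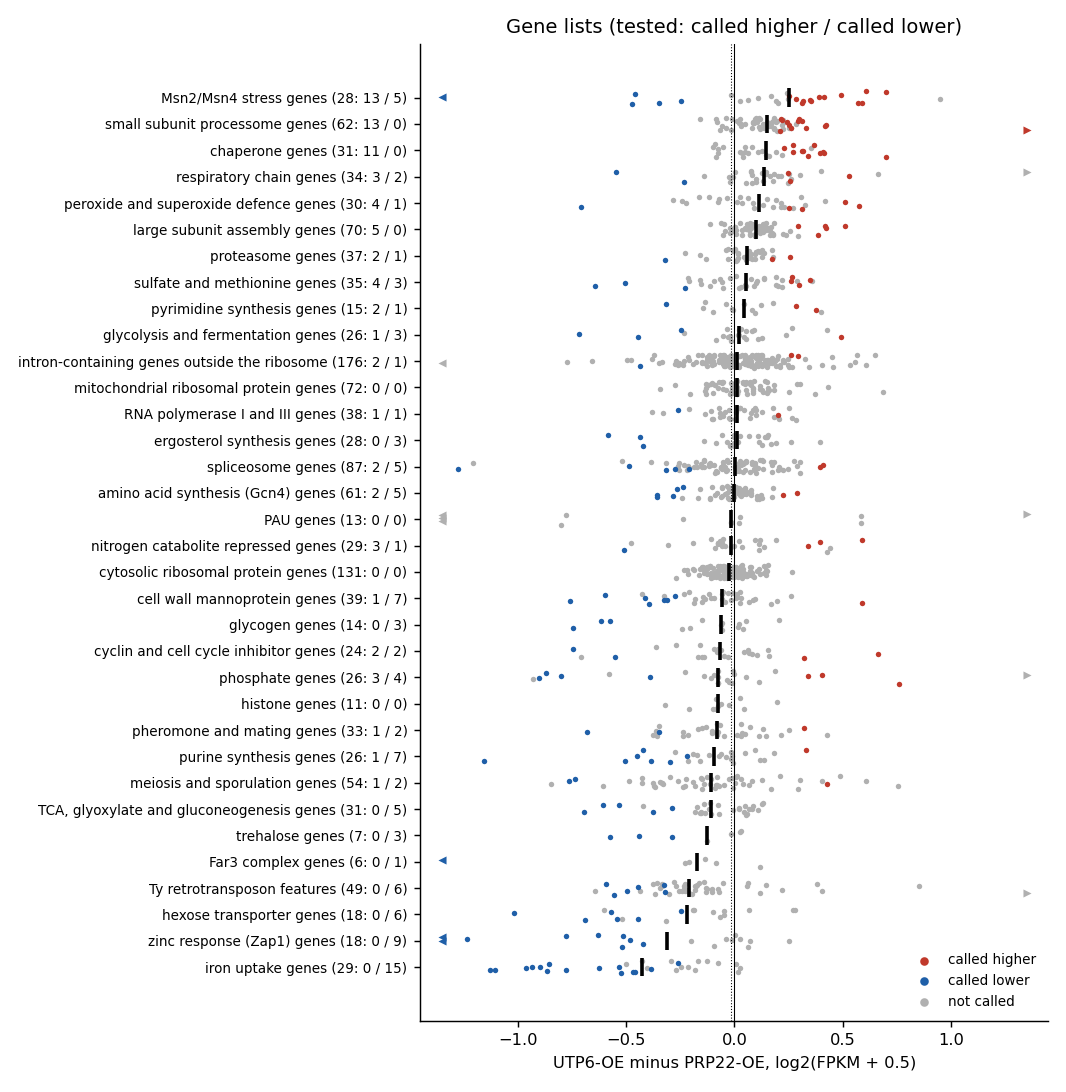
Rows are gene lists with the number tested and the numbers called higher and lower in UTP6-OE in brackets, and the horizontal axis is UTP6-OE minus PRP22-OE on log2(FPKM + 0.5). Points are members (red called higher, blue called lower, grey not called; arrowheads lie beyond the axis), black bars are list medians, and the dotted line is the median of all tested features, -0.02; the medians run from -0.43 for iron uptake to 0.25 for Msn2/Msn4 targets.

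The remaining lists are read against the 10.1% of all features called. Phosphate genes had 3 of 26 called higher and 4 lower (26.9%), with PHM8 at 0.76 and PHM7, PHO89 and PHO11 at -0.90, -0.87 and -0.80. Sulfate and methionine genes had 4 of 35 higher and 3 lower (20%), of which 1 higher and 1 lower were left with either UTP6-OE culture left out, 3 and 0 without the first PRP22-OE culture and 0 and 2 without the second, with MET3 at 0.35 and MUP3 at -0.64. Nitrogen catabolite genes had 3 of 29 higher, led by DAL3 (0.59), and 1 lower, GDH2 (-0.51), or 13.8%. Amino acid synthesis genes had 2 of 61 higher and 5 lower (11.5%), and the respiratory chain (14.7%) 3 of 34 higher, led by CYC1 (0.53), and 2 lower, led by GUT2 (-0.55). For ergosterol synthesis 3 of 28 (10.7%) were lower, led by the regulator gene ECM22 (-0.59), and none higher. Proteasome genes had 2 of 37 higher and 1 lower (8.11%), pyrimidine genes 2 of 15 higher and 1 lower (20%), polymerase I and III genes 1 of 38 each way (5.26%), and meiosis genes 1 of 54 higher and 2 lower (5.56%), led by IME2 (-0.76). Ty retrotransposon features had 6 of 49 called lower (12.2%, against 6.35%) and none higher, with a median of -0.21. The count was 3 and 2 without the first and second UTP6-OE cultures and 1 with either PRP22-OE culture left out, and since copies of Ty are nearly identical, the reads of single copies are uncertain.

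Of features under 400 bases, 16 were called. The widest below 0 were SIP18, AIM26 (-1.29) and SRX1, and those above 0 were YOL159C-A (2.15), YLR297W (1.39) and EGO4 (0.78). YOL159C-A had 48.2 and 27.1 FPKM in UTP6-OE, against 6.14 and 9.72 FPKM in PRP22-OE and 33.4 and 38.9 FPKM in WT. Its PRP22-OE cultures were the low ones, and the UTP6-OE cultures differed from each other by more than the WT cultures did. Of the longer features not yet described, RCK1, a protein kinase gene of the oxidative stress response, had 40.7 and 44.2 FPKM in UTP6-OE, against 89.2 and 90.2 FPKM in PRP22-OE and 19.7 and 23.4 FPKM in WT (-1.07, adjusted p = 0.00114). Both strains lay above WT, and PRP22-OE lay higher. The maltase gene MAL12 was at -1.03, EEB1, an acyltransferase gene of ester synthesis, at -1.02, and YDL211C and YJL213W at -0.99 and -0.99.

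Features lower than WT in both strains were chosen by a log2 difference of at most -1 and an adjusted p of at most 0.05 in each strain. They numbered 54, which is 38.6% of the 140 such features in UTP6-OE (2.43% of those tested) and 85.7% of the 63 in PRP22-OE (1.09%). Both strains were set against the same WT cultures. The pair was picked for having the most shared lower genes, so the size of this overlap is part of that choice and not a finding. How far both strains lay below WT chose these features. The direct difference was not itself used, but it is the gap between these distances, so the choice bears on it. In the direct contrast 16 of the 54 (29.6%, against 6.35% of all features) were called lower in UTP6-OE. Of the others, 1 was called higher and 37 were not called. The median was -0.21, against -0.02 over all tested features. By this choice both strains lay below WT in all 54, and for 16 of them the distance was called wider in UTP6-OE. YJL213W had 17.8 and 17.7 FPKM in UTP6-OE, against 37.5 and 33.9 FPKM in PRP22-OE and 96.5 and 97.5 FPKM in WT. YMR085W had 16.98 and 17.5 FPKM in UTP6-OE, against 30.2 and 35.02 FPKM in PRP22-OE and 90.6 and 93.6 FPKM in WT (-0.90, adjusted p = 0.000686). PHO89, the sodium phosphate symporter gene, had 4.52 and 5.21 FPKM in UTP6-OE, against 9.02 and 9.55 FPKM in PRP22-OE and 31.6 and 26.2 FPKM in WT. In these 3, as in TIS11 and ENB1, UTP6-OE lay lowest and PRP22-OE between it and WT, without overlap.

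YOL014W, a feature of 375 bases whose fall against WT in UTP6-OE was the widest of the 54, was at -0.56 (adjusted p = 0.00104), and the Ty feature YBR012W-B at -0.59. CIT2, GSC2, GYP7, DLD3, NCW2, CMK2 and DIA1 were called with differences between -0.41 for GSC2 and -0.20 for DIA1. Differences of YMR084W (-0.62), YPT53 (-0.54) and HXT10 (-0.52) were wide but were not called. The calcineurin regulator gene RCN1 (-0.19), PUN1 (-0.14), RTA1 (-0.24) and YOR385W (0.00) were not called either. BTN2, a protein sorting and aggregation gene, had 127 and 114 FPKM in UTP6-OE, against 84.5 and 88.8 FPKM in PRP22-OE and 255 and 275 FPKM in WT, and was the 1 feature called higher in UTP6-OE (0.47, adjusted p = 0.0108).

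**Figure D5:**
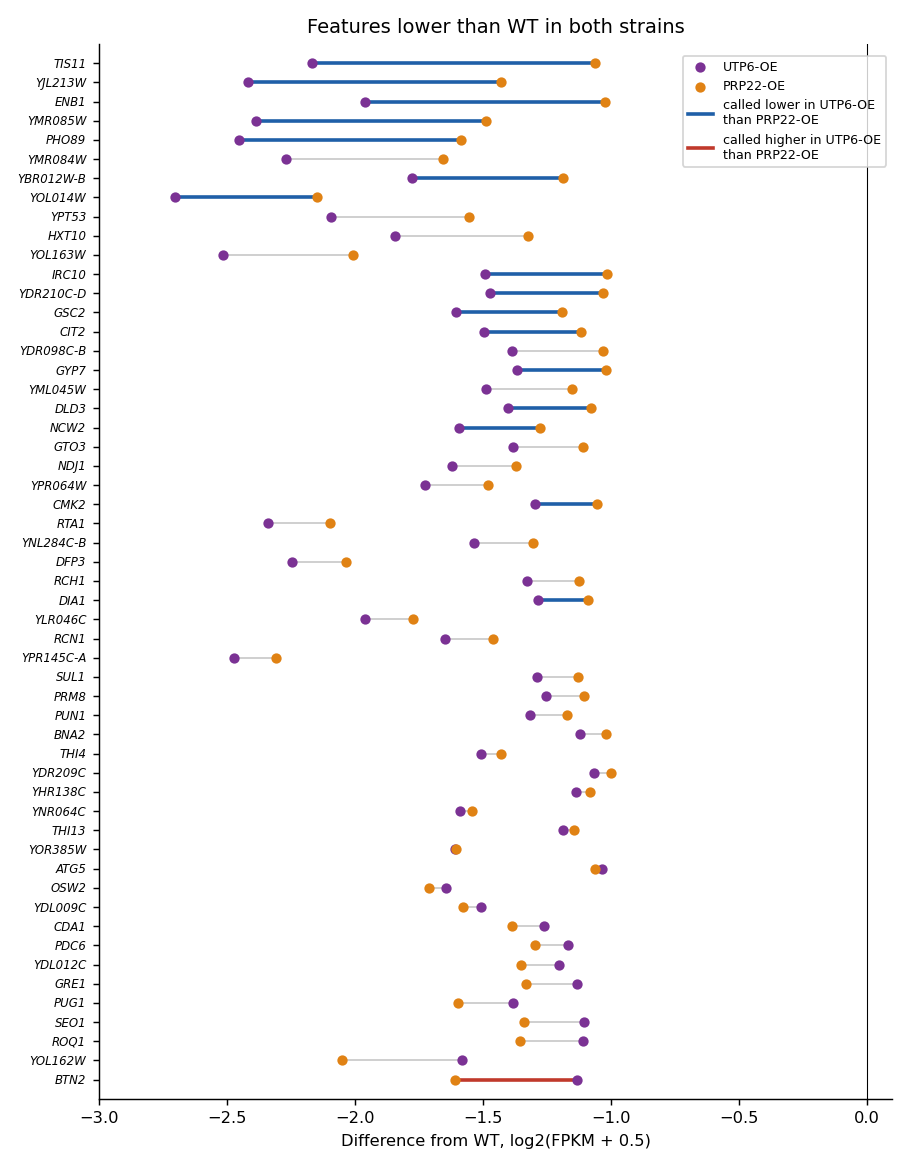
Each row is 1 of the 54 features lower than WT in both strains, with UTP6-OE (purple) and PRP22-OE (orange) minus WT on log2(FPKM + 0.5) on the horizontal axis. Thick lines join the 16 features called lower (blue) and the 1 called higher (red) in UTP6-OE than in PRP22-OE, and the purple points lie further left in most of the upper rows; rows are ordered by the direct difference, from TIS11 at -1.10 to BTN2 at 0.47.

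Some features lay on opposite sides of WT in the strains. Against WT, 29.1% of all tested features were called in UTP6-OE and 19.3% in PRP22-OE, with the same WT cultures in both. In 16 features called in the direct contrast, the contrasts with WT were called in opposite directions and the WT cultures lay between. ZPS1, ZRT1, ADH4, FET3, HSP30, CIP1 and COM2, described above, were among them. TPO4, a polyamine exporter gene, had 133 and 139 FPKM in UTP6-OE, against 260 and 256 FPKM in PRP22-OE and 164 and 158 FPKM in WT (-0.92, adjusted p = 7.05e-05). EEB1 had 40.1 and 41.7 FPKM in UTP6-OE, against 92.8 and 74.8 FPKM in PRP22-OE and 56.7 and 55.9 FPKM in WT. In these features WT lay between the strains, while both strains lay below WT in the 54.

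The calls rested on the pooled spread. Left out in turn, the first and second UTP6-OE cultures gave 252 and 182 calls and the first and second PRP22-OE cultures 226 and 244, and with only the 4 libraries compared there were 135, with 131 of them among the 581. Each WT culture left out gave 398 calls. In all these fits the 581 features kept their direction, which was fixed in advance, because their UTP6-OE and PRP22-OE cultures did not overlap. With only the 4 libraries compared, the calls were 6 in the zinc list, 9 in the iron list, 1 among hexose transporters, 2 among Msn2/Msn4 targets (1 each way), 3 among chaperones and 2 in the small subunit processome. Without the 3 short-fragment libraries of the series, 1 of them of a strain not compared here, 1 UTP6-OE and 1 PRP22-OE culture remained and 5 features were called, with ZPS1, ZRT1 and FAR3 among them.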

How the data were processed

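RNA was sequenced from 2 independent cultures of each of 5 strains, and samples were assigned to UTP6-OE, PRP22-OE and WT by their labels. The authors deposited FPKM values, and a further table, described as raw reads, was identical to it in all 58240 cells. The methods name HISAT2, featureCounts, edgeR and DESeq2 with 150-base paired-end reads on the S288c genome, while the submitters' processing notes name STAR, RSEM, edgeR and limma, and which of these made the FPKM is not given in the sources used here. Since no counts were held, no count model was used. How the FPKM were scaled for features shorter than a fragment was not determined, and values of features under 400 bases are therefore less certain.

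The tests used limma 3.58.1 (R 4.3.3; lmFit and eBayes with a trend) on log2(FPKM + 0.5) over 5768 of 5824 features, in 1 fit of all 10 libraries with 5 residual degrees of freedom. P-values are two-sided, with Benjamini-Hochberg adjustment over all tested features. The p-values measure the spread between 2 cultures of a strain, pooled over strains. On data simulated for the direct contrast over the same features, with 200 changed by 0.5, 1 or 1.5 in log2, 80.5%, 97.5% and 98.5% were called. Of the calls, 4.73%, 3.94% and 3.9% were unchanged features. The changed features were drawn only from those above a set mean level. The simulated noise was independent between libraries and held no effect of fragment length, so these shares do not measure sensitivity in the real libraries. Depth and fragment length were estimated from the spacing of values under 4 FPKM, of which 74.1% to 92.9% lay within 0.15 of a whole number of fragments. Promoter windows came from RefSeq R64. Python 3.11.15, pandas 2.3.3, numpy 2.4.6 and matplotlib 3.10.9 were used.

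The strains, the 35 gene lists and the rules were chosen with earlier results of these data known. Named were UTP6, PRP22 and their neighbours, the 15 widest called features each way of at least 400 bases whose cultures did not overlap, the 3 widest each way below that length, up to 4 called members a list, the 10 widest features lower in both strains, and the 10 widest on opposite sides of WT. The result of 1 list is not reported here. Other members, and the ribosomal RNA features, are given as context and were chosen after their values were seen. Alternatives were rescaling by the median of ratios, pseudocounts of 0.1 and 1, a minimum mean of 5 FPKM or none, a replicate block, the compared libraries only, only features 400 bases or longer, a covariate for fragment length, eBayes without the trend or robust, repeated features counted once, and each culture left out. A crossed replicate block and leaving out the short-fragment libraries were added after seeing the data.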

Additional observations from a re-analysis of the deposited data

Results flagged for a closer look

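The contrasts of both strains with WT were called in opposite directions in 16 features, and the 10 with the widest direct difference are given here. Each was flagged because the strains differed from each other by the direct contrast while WT lay between them. Lower in UTP6-OE than in PRP22-OE were ZPS1 (-5.39, with -4.76 against WT in UTP6-OE and 0.63 in PRP22-OE), ZRT1 (-2.15, with -0.92 and 1.23 in the same order) and ADH4 (-1.23, with -0.93 and 0.31). EEB1 (-1.02, with -0.46 and 0.56), TPO4 (-0.92, with -0.25 and 0.68) and FET3 (-0.86, with -0.54 and 0.32) were also lower. Higher in UTP6-OE were HSP30 (1.58, with 1.08 and -0.50), YLR297W (1.39, with 0.71 and -0.68), CIP1 (1.34, with 0.90 and -0.44) and COM2 (1.01, with 0.52 and -0.49). Of these, YLR297W is 390 bases long. Adjusted p-values of the direct contrasts lay between 6.75e-09 for ZPS1 and 0.001 for EEB1 by limma.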

How the results depend on the processing

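The 581 called features kept their direction under every alternative in which they were tested. In most alternatives this was fixed in advance, because the cultures did not overlap or the fit kept the same difference of means. Only rescaling by the median of ratios and the covariate for fragment length could have turned a direction. With only the libraries compared, 135 features were called, 44 higher and 91 lower, and 5 of the features lower in both strains were called lower directly. Without the short-fragment libraries, an alternative chosen after seeing the data that leaves 1 UTP6-OE and 1 PRP22-OE culture, whose spread is then taken from the other strains, 5 features were called, 1 higher and 4 lower, with 0 of the features lower in both strains called lower directly at an adjusted p of at most 0.05. That fit gave 553 calls for UTP6-OE and 228 for PRP22-OE against WT, where the main counts were 1678 and 1114. Rescaling by the median of ratios gave 733 calls, of which 343 (46.8%, against 37.0%) were higher, and it held 570 of the 581. With 1 culture left out at a time, the direct calls ranged from 182 to 398, the higher ones from 56 to 139 and the lower ones from 126 to 259. The count against WT then ranged from 864 to 1562 for UTP6-OE and from 518 to 1006 for PRP22-OE, and the features lower in both strains and called lower directly from 7 to 13. Culture number as a replicate block gave 487 calls, and 12 of 133 called features named by the rule were not called with it. The culture numbers were not taken to pair the samples. Same-numbered UTP6-OE and PRP22-OE cultures deviated with r = -0.26, and over all pairs of strains r ran from -0.36 to 0.43. Over features of at least 400 bases r was -0.115 for these strains and ran from -0.238 to 0.195 over all pairs. The short-fragment library was the first UTP6-OE but the second PRP22-OE culture, so r cannot tell pairing apart from fragment length. A block with crossed numbers gave 525 calls. No called feature named by the rule changed direction, and of those not called RPS18A turned above 0 without the first UTP6-OE culture (0.05) and without the first PRP22-OE culture (0.09). Features under 400 bases and depth limit what could be called at low levels.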

Other observations

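STB2 (YMR053C, chrXIII:380346-382898), which lies beside FAR3 and was singled out after its values were seen, had 9.83 and 9.10 FPKM in UTP6-OE, against 14.98 and 14.6 FPKM in PRP22-OE and 18.7 and 16.7 FPKM in WT, a direct difference of -0.62 (adjusted p = 0.00642 from limma). U3, the snoRNA of the processome, is annotated as snR17a and snR17b, and snR17a had 25.8 and 23.7 FPKM in UTP6-OE, against 17.6 and 20.9 FPKM in PRP22-OE and 27.3 and 25.7 FPKM in WT (0.36, not called, adjusted p = 0.256). For snR17b the levels were 4.56 and 6.99 FPKM in UTP6-OE, against 8.10 and 8.25 FPKM in PRP22-OE and 10.9 and 11.2 FPKM in WT (-0.49, not called).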
